A study of Mus musculus with 12 samples.

Results

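The cytosolic ribosome is built from ribosomal RNA and a fixed set of ribosomal proteins, nearly all of them present as a single copy in each particle. Proteins named Rps belong to the small subunit, which reads the mRNA, and proteins named Rpl to the large subunit, which joins amino acids, while Rplp proteins form the stalk that recruits elongation factors. Their genes are among the most actively transcribed in most cells, and their mRNAs commonly begin with a stretch of pyrimidines (C and T in DNA), the 5′ TOP motif, through which mTORC1 and LARP1 control their translation. Some members have a paralogue elsewhere in the genome, a few of which are known for their use in testis or striated muscle.

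The members described here are the protein-coding genes whose GENCODE mouse name is Rpl, Rps or Rplp followed by a number, with an optional a, l, x or y, together with Rpsa. Kinases of the Rps6k family and pseudogenes were left out. This name rule found 81 of the 55416 genes, of which 46 encode large-subunit proteins, 3 stalk proteins and 32 small-subunit proteins. It did not take 7 further ribosomal protein genes, among them Rps3a1, Rpl36al, Rpl22l1 and Rpl7l1, whose suffixes are longer, and these were analysed beside the members.

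Levels were measured by bulk RNA-seq in 6 pools of inner hair cells (IHCs) and 6 pools of outer hair cells (OHCs), the sensory cells of the organ of Corti, from wild-type mice at postnatal day 0 (P0). By the study's methods, IHCs were sorted for GFP alone and OHCs for GFP together with tdTomato, so both groups carried a GFP reporter, and the OHC gate also depended on a Cre allele at Insm1. Each pool held cells of multiple animals of both sexes, and no source used here says which animals a replicate number joins.

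The libraries held 29564827 to 44017309 counts on genes. Ribosomal RNA took 21.5% to 56.9% of these in IHCs and 23.4% to 36.4% in OHCs, with the highest share in IHC replicate 1, which also had the lowest TMM scaling factor (0.486) and stood apart in the values below. All 5 inner hair cell markers listed (Fgf8, Slc17a8, Tbx2, Shtn1 and Otof) were higher in every IHC library than in every OHC library, and 4 of 5 outer hair cell markers were higher in every OHC library, the exception being Ikzf2.

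The sequences around the annotated start show how the members that the results turn on differ in their pyrimidine stretches. RefSeq windows were at hand for 60 of the 81 members, and those of Rps4x, Rps3, Rps6 and Rps9 are shown because these were the genes called between the cell types, and those of Rps27, Rps26 and Rpl35 because they are named members on both sides of 0. Each line gives 40 bases before and 20 bases from the annotated start in build GRCm38.p6, 5′ to 3′ on the gene's strand, with the longest unbroken run of C and T within 20 bases of the start on either side in capitals.
Rps4x, chrX:102189372-102189431, minus strand: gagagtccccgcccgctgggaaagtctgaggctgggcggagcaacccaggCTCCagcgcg
Rps3, chr7:99483690-99483749, minus strand: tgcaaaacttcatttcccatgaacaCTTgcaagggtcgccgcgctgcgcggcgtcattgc
Rps6, chr4:86857348-86857407, minus strand: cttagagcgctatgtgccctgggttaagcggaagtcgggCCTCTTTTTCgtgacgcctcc
Rps9, chr7:3704001-3704060, plus strand: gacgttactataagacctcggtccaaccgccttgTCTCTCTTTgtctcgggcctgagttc
Rps27, chr3:90213629-90213688, minus strand: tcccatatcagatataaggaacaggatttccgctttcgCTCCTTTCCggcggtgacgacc
Rps26, chr10:128626487-128626546, minus strand: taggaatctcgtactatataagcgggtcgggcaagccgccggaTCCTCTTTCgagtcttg
Rpl35, chr2:39005112-39005171, minus strand: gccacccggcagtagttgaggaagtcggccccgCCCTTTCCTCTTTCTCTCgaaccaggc

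A run of at least 8 pyrimidines lay within 20 bases of the start in 27 of the 60 member windows (45%), and in 15.9% of 27025 windows with one window per gene symbol. The longest run had a median length of 7 bases among members and 5 bases over all windows. The letters CTTTCC, searched on both strands of the whole window of 300 bases, were in 48.3% of member windows and in 26.3% of all windows. The shorter CTTTC, which CTTTCC contains, was in 81.7% and 57.1%. Among the 4 called genes, Rps6 and Rps9 had a run of at least 8 bases in these windows, whereas the longest runs of Rps3 and Rps4x were 3 and 4 bases. The annotated start may lie some bases from the start used in hair cells, which these counts do not measure.

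Of the 81 members, 78 passed the filter on low counts, and 4 of these differed between the cell types, all higher in OHCs. In bulk pools, fewer cells of a type and less RNA per cell cannot be told apart. The 4 genes were Rps4x, Rps3, Rps6 and Rps9, all proteins of the small subunit, with 0 of the 46 tested large-subunit and stalk genes called in either direction. The 4 make up 5.13% of the tested members. Across the 13269 genes tested, 2.44% were called OHC-enriched and 3.81% IHC-enriched by the same rule (edgeR quasi-likelihood test, adjusted p under 0.05). At an unadjusted p under 0.05, 10 members were higher in OHCs and 6 in IHCs. No member was called IHC-enriched by edgeR's quasi-likelihood or exact test, DESeq2 or limma-voom. The exact test called 4 members OHC-enriched, where 3.91% of all genes were called in that direction and 5.66% in the other. DESeq2, which gave an adjusted p for 75 members, called 5 (9.4% and 7.92% of all genes), and limma-voom called 6 (3.99% and 4.57%). Rpl36 and Rpl23a, among the most negative members, got no adjusted p from DESeq2, which therefore could not call them.

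Rps4x, an X-linked gene (GRCm39, chrX:101228542-101233014) whose protein lies on the small subunit, had the clearest difference. Its level was 141 to 215 CPM (read counts scaled by the TMM-adjusted library size) in IHCs, with a median of 175, and 303 to 409 CPM in OHCs, with a median of 368. Every OHC library therefore lay above every IHC library. Rps4x was the one member arranged in this way, against 2.22% of all tested genes, and no member had all IHC libraries above all OHC libraries, against 2.37%. The log2 fold change was 1.05 ± 0.18 (SE, n = 6 and 6; edgeR quasi-likelihood test, adjusted p = 0.00119), a 2.07-fold difference. It was called in each of the 12 fits that left out 1 library.

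Rps3, whose protein sits where the mRNA enters the small subunit, was less even among IHCs. Its IHC levels ran from 222 to 787 CPM with a median of 257, and its OHC levels from 621 to 872 CPM with a median of 775. Replicate 1 reached 787 CPM and replicate 5 reached 479 CPM, while the other 4 IHC libraries stayed at or below 281 CPM, so that the groups overlapped through replicate 1. The log2 fold change was 1.02 ± 0.28 (SE; edgeR quasi-likelihood test, adjusted p = 0.034), and it was 1.37 with adjusted p = 0.000444 without IHC replicate 1. Of the 12 fits without 1 library it was called in 2, with the largest adjusted p at 0.0875.

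Rps6 encodes the small-subunit protein that is phosphorylated by S6 kinases downstream of mTORC1. It was at 53.8 to 122 CPM in IHCs (median 81.0) and at 116 to 184 CPM in OHCs (median 143). Only the highest IHC library, replicate 2, reached into the OHC range, and 5 of 6 OHC libraries lay above it. The log2 fold change was 0.81 ± 0.23 (SE; edgeR quasi-likelihood test, adjusted p = 0.0398). Rps9, another small-subunit protein, was at 77.4 to 171 CPM in IHCs (median 92.1) and at 128 to 248 CPM in OHCs (median 197). In all, 4 OHC libraries exceeded all IHC libraries, and IHC replicate 1 was again the highest of its group. Its log2 fold change was 0.81 ± 0.24 (SE; edgeR quasi-likelihood test, adjusted p = 0.0483). The calls of these 2 genes were close to the threshold, with adjusted p of up to 0.105 for Rps6 and 0.134 for Rps9 when 1 library was left out.

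**Figure D1:**
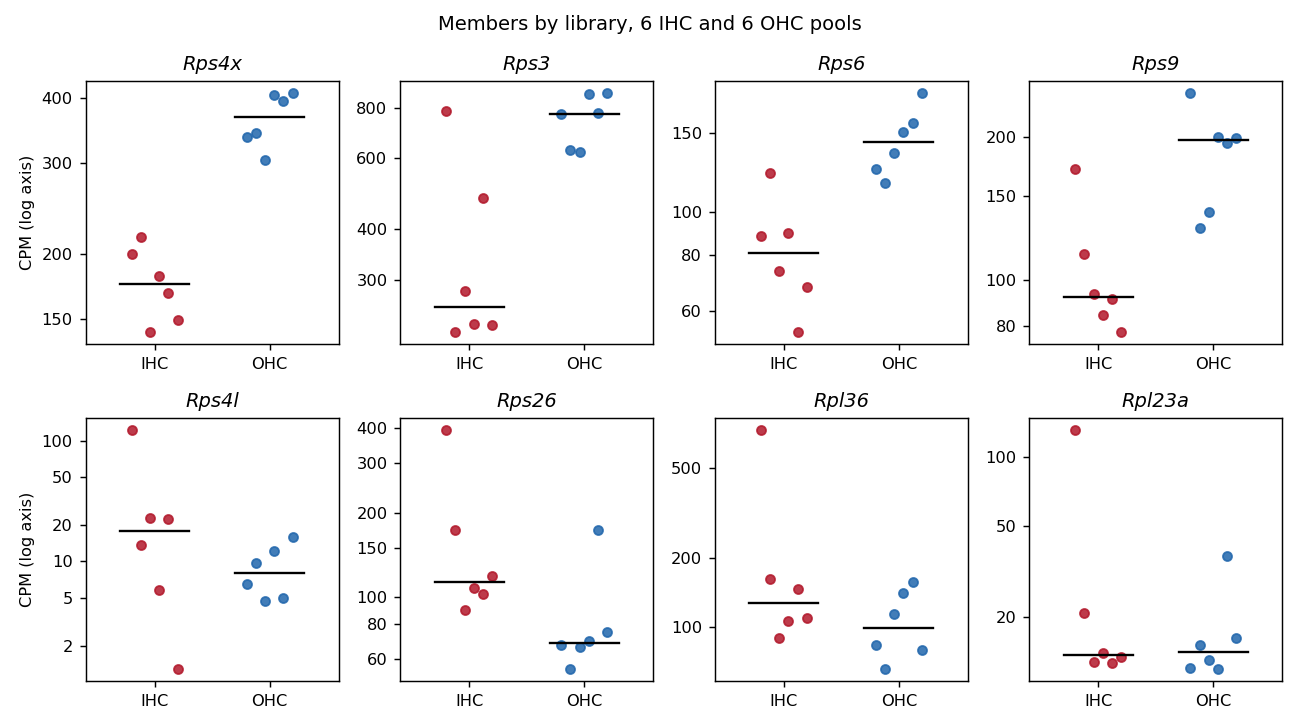
CPM on a log axis, with a scale of its own in each panel, for 8 members in 6 IHC and 6 OHC libraries (points; the bar is the median). The upper row holds the 4 members called OHC-enriched, of which Rps4x alone has groups that do not overlap, and the lower row 4 members with large negative fold changes, where IHC replicate 1 is the highest point in each panel.

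The other small-subunit genes on the OHC side did not pass the test. Rps27 had a log2 fold change of 0.67 ± 0.29 (SE) with adjusted p = 0.175. Rps27a, which is made as a fusion with ubiquitin, had 0.60 ± 0.25 with adjusted p = 0.17. Among large-subunit genes, Rpl30 had the highest value, 0.81 ± 0.27 with adjusted p = 0.0756 (edgeR quasi-likelihood test throughout). Rpl5, which joins 5S ribosomal RNA with Rpl11 before entering the large subunit, had 0.62 ± 0.27, and Rpl11 itself −0.27 ± 0.26. Rpl30 was called by DESeq2, and Rpl4 was among the members called by limma-voom.

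On the IHC side, the 5 most negative members were Rps4l, Rpl36, Rpl35, Rpl23a and Rps26. Rpl36 was at 89.5 to 740 CPM in IHCs and 65.1 to 157 CPM in OHCs, with medians of 128 and 98.3. Its log2 fold change was −1.08 ± 0.44 (SE; edgeR quasi-likelihood test, adjusted p = 0.155), and −0.21 without IHC replicate 1, the library at 740 CPM. Rpl23a was at 131 CPM in that library and at no more than 20.7 CPM in the other IHC libraries, and its value of −0.96 ± 0.59 turned to 0.25 without it. Rpl35 kept its direction in all 12 such fits, from −1.15 to −0.47, and 4 of its IHC libraries exceeded all OHC libraries. Rps26, which contacts mRNA upstream of the start codon, was at 89.8 to 395 CPM in IHCs (median 114) and 55.5 to 174 CPM in OHCs (median 68.7). The highest library of each group, IHC replicate 1 and OHC replicate 5, stood far from the rest. Its log2 fold change was −0.96 ± 0.36 (edgeR quasi-likelihood test, adjusted p = 0.127), and of the 12 fits without 1 library it passed the threshold only in that without OHC replicate 5, with −1.30 and adjusted p = 0.0361.

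**Figure D2:**
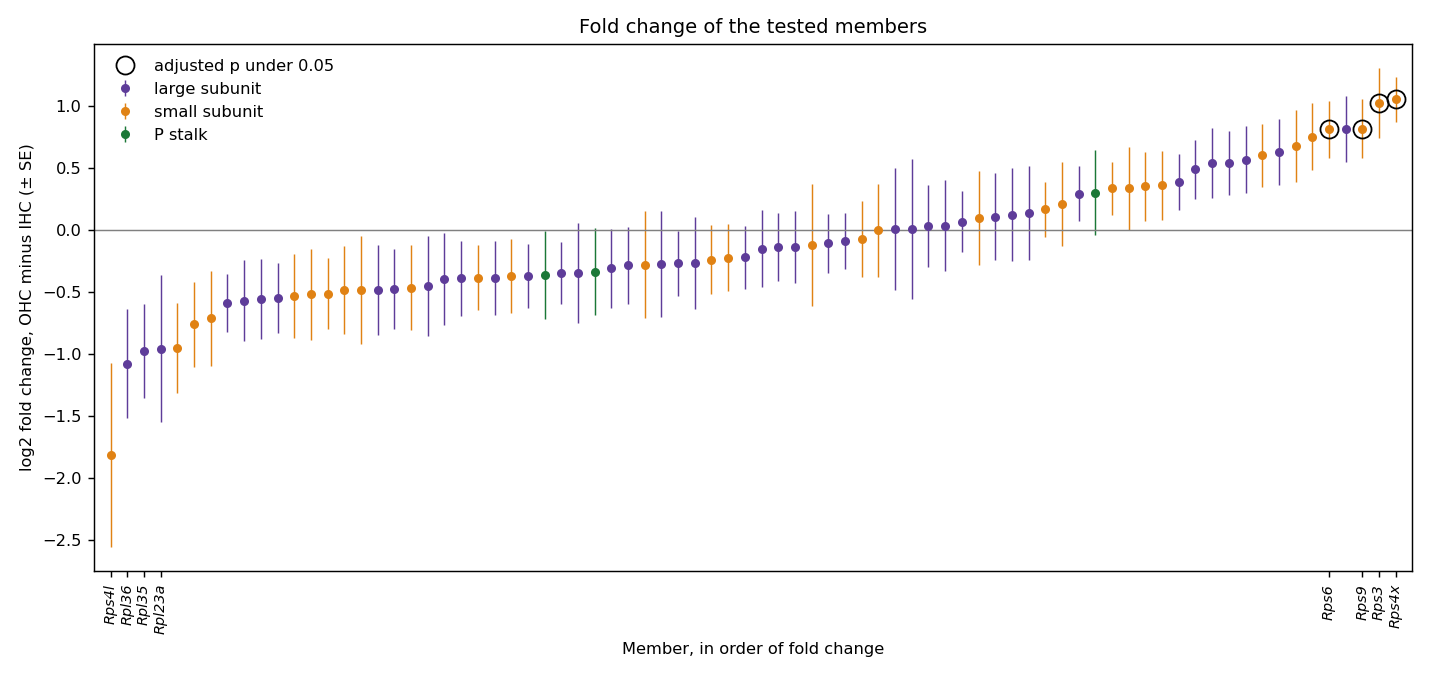
log2 fold change (OHC minus IHC) with its SE for the 78 tested members in order, coloured by subunit, with circles around the 4 with adjusted p under 0.05 and names for these and the 4 lowest. Values run from −1.82 for Rps4l to 1.05 for Rps4x, and the circled points are all small-subunit genes.

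As a group, the members leaned slightly to the IHC side in these fits, by an amount that depended on 1 library. The median log2 fold change of the 78 members was −0.19, with 31 above 0 and 47 below, beside −0.04 over all genes tested. It was −0.10 for the 32 small-subunit genes and −0.25 for the 46 large-subunit and stalk genes. Without IHC replicate 1 the median of the members was 0.06, with 45 above 0. Without TMM factors, where the median of all genes shifted from −0.04 to 0.21, it was 0.13. No direction of the group as a whole is therefore given.

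Members were high or low together within a library. In IHC replicate 1 the median member stood 0.89 above its mean level on the log2 scale, and in IHC replicate 6 it stood at −0.67. In OHCs the range was narrower, from −0.48 in replicate 2 to 0.56 in replicate 5. IHC replicate 1 was the highest IHC library for 54 of 78 members (69.2%), beside 23.6% of all genes tested. OHC replicate 5 was the highest OHC library for 56 members (71.8%), beside 24.2% of all genes. The members took 1.002% to 2.61% of the counts other than ribosomal RNA in IHCs and 1.35% to 2.33% in OHCs. The medians were 1.44% and 1.79%. The OHC range lay within the IHC range only through IHC replicate 1, the library at 2.61%, as the next IHC library was at 1.73%. Replicate 1 had the highest rRNA share among IHC libraries and replicate 5 among OHC libraries (36.4%), and the part of this in the members' levels was not tested.

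With these shared shifts left in, most members varied less among libraries than the median gene. The genes compared were not matched for expression level, so steadiness is not shown to be particular to the members. The SD of log2 CPM among OHC libraries had a median of 0.46 over members and 0.71 over all genes, and 73 of 78 members lay below the latter. Among IHC libraries the medians were 0.65 and 0.86, and 0.43 and 0.76 without replicate 1. The steadiest member among IHC libraries was Rpl22, with an SD of 0.20. Rps4l varied most among IHC libraries, with an SD of 2.06.

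**Figure D3:**
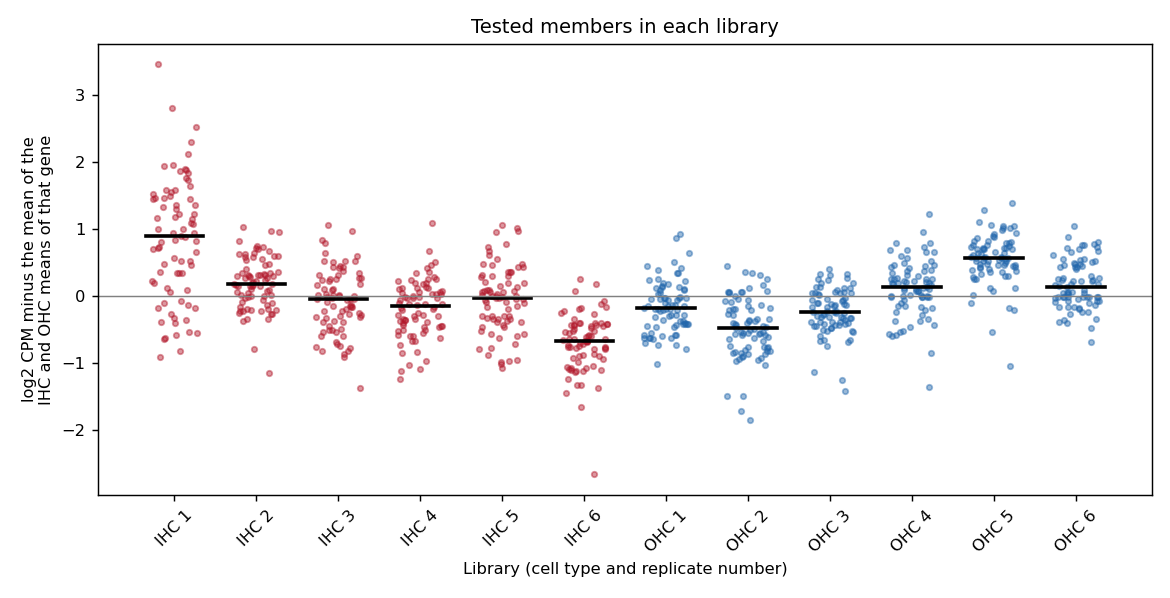
For each of the 12 libraries, the log2 CPM of the 78 tested members (points) minus the mean of the IHC and OHC means of that gene, with the median as a bar. The bars run from −0.67 in IHC replicate 6 to 0.89 in IHC replicate 1, and the points of IHC replicate 1 are the most scattered.

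The balance between the subunits, read within each library, does not depend on how libraries are scaled. Summed small-subunit counts were 0.449 to 0.595 of the summed large-subunit and stalk counts in IHCs (median 0.540), and 0.603 to 0.683 in OHCs (median 0.629). The groups did not overlap, with a ratio of 1.19 between the geometric means of the cell types. The 4 called genes carried this difference. Without them the ratio was 0.371 to 0.478 in IHCs and 0.398 to 0.455 in OHCs, the OHC range within the IHC range. These 4 were selected on the same counts, so this is a description of where the difference lay. With counts per length of the canonical transcript the ratio was 0.592 to 0.725 in IHCs and 0.708 to 0.794 in OHCs, with overlap. With counts per kilobase of coding sequence it was 0.439 to 0.526 and 0.583 to 0.667, without overlap.

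**Figure D4:**
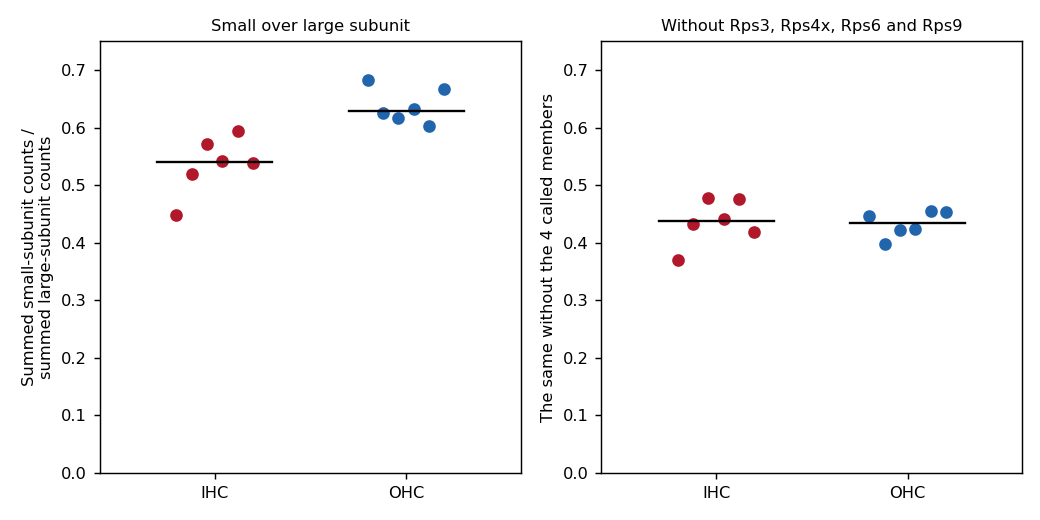
Summed counts of small-subunit genes over summed counts of large-subunit and stalk genes in each library (points; bar, median), with all members at left and without the 4 called members at right. The 6 OHC libraries lie above the 6 IHC libraries at left (0.603 to 0.683 against 0.449 to 0.595) and among them at right.

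Paralogues were mostly minor against their parents, by counts, though Rpl36al exceeded Rpl36a in IHC replicate 1. Rpl3l, known from striated muscle, and Rpl10l, known from testis, had 0 counts in all 12 libraries, where 3 counts would be at most 0.196 CPM. Rpl39l, also known from testis, had 11 counts in all, 5 in IHCs and 6 in OHCs. These 3 genes were the members that did not pass the filter on low counts.

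Rps4l is an autosomal paralogue of Rps4x (GRCm39, chr6:148256098-148257431) and the most weakly expressed tested member per length in OHCs. It was at 1.28 to 124 CPM in IHCs, with a median of 18.0, and at 4.67 to 15.9 CPM in OHCs, with a median of 8.08. Its counts were 0.857% to 62.1% of those of Rps4x in IHCs (median 9.81%) and 1.26% to 3.90% in OHCs (median 2.38%). All 6 OHC libraries lay below the IHC median, yet the lowest value was that of IHC replicate 6. The log2 ratio of Rps4l to Rps4x differed by −1.82 between the cell types, from −3.67 ± 2.12 (SD, n = 6) in IHCs to −5.48 ± 0.62 (SD, n = 6) in OHCs (two-sided exact permutation test, p = 0.0693, adjusted p = 0.173 over 5 pairs). Of the 12 fits without 1 library, only that without IHC replicate 6, the library with the lowest ratio, passed (adjusted p = 0.0216, exact permutation test), and the adjusted p of the others reached 0.352. The coding sequences of the 2 genes were identical at 80.0% of 786 aligned bases. Of the 100-base windows that overlap the coding sequence, 1.58% for Rps4l had an exact copy elsewhere in the genome, beside 43.1% for Rps4x. The first 120 coding bases from the start codon, taken from the canonical transcripts on GRCm39, are shown with the 26 bases that differ in capitals, to show how reads of the pair can be told apart.
Rps4x: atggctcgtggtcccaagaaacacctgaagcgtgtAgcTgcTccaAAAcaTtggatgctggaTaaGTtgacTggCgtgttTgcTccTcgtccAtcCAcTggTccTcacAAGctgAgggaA
Rps4l: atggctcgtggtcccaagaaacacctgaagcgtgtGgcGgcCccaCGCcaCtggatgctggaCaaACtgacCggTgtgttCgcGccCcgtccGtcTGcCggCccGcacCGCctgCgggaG

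Rps27l, a p53 target in other cells, showed a ratio to Rps27 that leaned the same way. Its counts were 3.59% to 16.1% of those of Rps27 in IHCs (median 9.12%) and 3.62% to 6.34% in OHCs (median 5.47%). All 6 OHC libraries were below the IHC median, and IHC replicate 1 was below all of them. The log2 ratio differed by −0.76, from −3.50 ± 0.76 (SD, n = 6) to −4.26 ± 0.30 (SD, n = 6), with p = 0.0498 and adjusted p = 0.173 (two-sided exact permutation test). Only 1 of the 12 fits without 1 library passed, that without IHC replicate 1, the library with the lowest ratio (adjusted p = 0.0108, exact permutation test), and the adjusted p of the others reached 0.314. The level of Rps27l itself differed little, with a log2 fold change of −0.12 ± 0.49. The coding sequences were identical at 76.2% of 252 bases, and 28 of the first 120 differed.
Rps27: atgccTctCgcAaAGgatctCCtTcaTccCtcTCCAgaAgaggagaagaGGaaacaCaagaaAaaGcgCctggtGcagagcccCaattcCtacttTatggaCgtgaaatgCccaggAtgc
Rps27l: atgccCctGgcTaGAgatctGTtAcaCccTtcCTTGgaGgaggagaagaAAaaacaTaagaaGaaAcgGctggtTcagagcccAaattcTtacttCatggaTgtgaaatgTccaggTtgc

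The other 3 pairs had no call. Rpl36al had 52.5% of the counts of Rpl36a at the IHC median and 27.6% at the OHC median (two-sided exact permutation test, adjusted p = 0.292). Its share ran from 19.5% to 123% in IHCs and from 23.2% to 38.9% in OHCs. That of Rpl22l1 to Rpl22 ran from 9.16% to 74.9% in IHCs and from 13.8% to 46.0% in OHCs. Rpl22l1 had 37.1% and 25.5% of those of Rpl22, and Rpl7l1 had 9.91% and 9.45% of those of Rpl7, both with adjusted p = 0.749 in the two-sided exact permutation test.

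**Figure D5:**
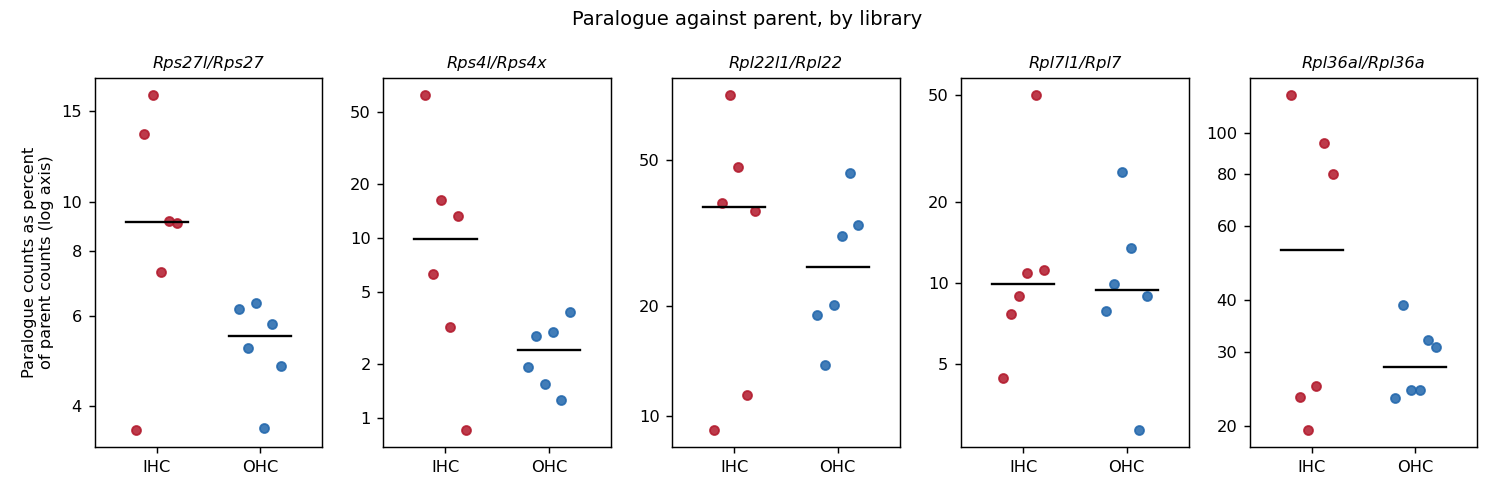
Counts of each paralogue as a percent of the counts of its parent, on a log axis with a scale of its own in each panel, in 6 IHC and 6 OHC libraries (points; bar, median). For Rps27l/Rps27, Rps4l/Rps4x and Rpl36al/Rpl36a all 6 OHC libraries lie below the IHC median, and every pair overlaps between the cell types.

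Levels of different members can be compared only per length, and here length-normalized levels (TPM) were computed over genes other than ribosomal RNA with the length of the canonical transcript. Tested members averaged 64.0 to 3895 TPM in IHCs (median 413) and 30.1 to 3386 TPM in OHCs (median 476). Rpl41, which encodes a very short basic peptide, was highest in both, at 3895 ± 1226 TPM (SD, n = 6) in IHCs and 3386 ± 998.1 TPM in OHCs. In IHCs it was followed by Rps29 at 1547 ± 616 TPM, Rps27 at 1165 ± 231 TPM, Rpl18 at 1132 ± 330 TPM and Rpl7a at 1110 ± 179 TPM. Neighbours in this order of 4 differed by less than the larger of their SDs. In OHCs it was followed by Rps27 at 2149 ± 721 TPM, Rpl4 at 1846 ± 167 TPM, Rps3 at 1769 ± 231 TPM and Rps4x at 1642 ± 131 TPM, again with neighbours closer than the larger SD. Rps3 and Rps4x ranked 23 and 21 among the members in IHCs and 4 and 5 in OHCs. At the lower end were Rps15a, Rpl34, Rpl37, Rps4l and Rpl13a in IHCs, and Rps10, Rpl13a, Rpl34, Rpl37 and Rps4l in OHCs. The order of the members was much alike in both cell types (Spearman's rho 0.92 across 78 genes, which share libraries and lengths). It depended on the transcript model, since the order per coding length had a rho of 0.58 with it, and Rpl37, with a canonical transcript of 6111 bases and a coding sequence of 291, moved from rank 76 to 14.

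Ribosomal protein genes carry many processed copies, and reads that match several places were not assigned to a gene by the counting. Windows of 100 transcript bases that overlap the coding sequence, in whole or in part, were searched for exact copies elsewhere in GRCm39. Of the 81 members, 74 had at least 1 such window with a copy, and 45 had copies of over 50% of these windows. Rps3, Rpl22 and Rps27l were among the expressed members with none. Of the called genes, Rps3 had 0%, Rps9 29.1%, Rps4x 43.1% and Rps6 92.8% of windows copied. Across the 78 tested members the fold change and the copied share had a Spearman's rho of −0.02. Counts assigned to 320 annotated pseudogenes named after members came to 1.43% to 1.95% of the members' counts in IHCs and 0.897% to 1.28% in OHCs, without overlap between the groups. Of these, 58 were tested, 0 were called in either direction by the edgeR quasi-likelihood test, and 48 had a negative fold change, with a median of −0.49. Adding their counts to the members left the same 4 genes called.

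Other features of the genes went with the fold change in part. Across the 78 members, the log2 fold change had a Spearman's rho of −0.39 with the GC content of the canonical transcript, beside −0.29 across all tested genes, and of −0.23 beside −0.20 without IHC replicate 1. The 31 members above 0 had a median GC content of 50% and the 47 below 0 of 52.1%. After a correction for GC content in each library, chosen after seeing the data, Rps4x and Rps6 were called, 2.56% of members beside 1.84% of all genes on the OHC side, and the median of the members was −0.05. Of the members, 29 host snoRNA genes, which guide modification of ribosomal RNA, and their median fold change was −0.11, beside −0.24 for the tested members without one. The strand setting of the counting is not given in the sources used here. Exons of 16 members share over 25% of their bases with another gene, among them Rpl23a (79.4%), Rpl5 (51.4%) and Rps27a (40.8%), whose counts are uncertain for this reason, while Rps4x and Rps9 share none, Rps6 2.76% and Rps3 3.28%.

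Among the 7 ribosomal protein genes that the name rule does not take, 0 passed the edgeR quasi-likelihood test, with 1 in each direction at an unadjusted p under 0.05. Rps3a1, a small-subunit protein, was nearest, at 96.6 to 295 CPM in IHCs and 255 to 443 CPM in OHCs. The fold change on the log2 scale was 0.78 ± 0.24 (SE; adjusted p = 0.058). It was called OHC-enriched by the exact test, DESeq2 and limma-voom.

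The mitochondrial ribosome, which is made from a separate set of nuclear genes, had no call in the main test. Of 78 genes named Mrpl or Mrps, 77 were tested and 0 were called in either direction by the edgeR quasi-likelihood test, with 2 higher in OHCs and 7 in IHCs at an unadjusted p under 0.05. The exact test called 2, Mrpl28 and Mrpl54, higher in IHCs, DESeq2 called 2 higher in OHCs and 3 in IHCs, and limma-voom called 0. Their median log2 fold change was 0.12.

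Genes that act around the ribosome were taken from lists of translation and ribosome production genes. Of 29 initiation factors, 4 were higher in OHCs and 0 in IHCs by the edgeR quasi-likelihood test, with 7 and 2 at an unadjusted p under 0.05, and DESeq2 called 7 and 1. The 4 were Eif1ax (log2 fold change 0.97 ± 0.26 SE, adjusted p = 0.0289), Eif2s3x, the gamma subunit of eIF2 (0.86 ± 0.24, adjusted p = 0.0349), the helicase Eif4a2 (0.98 ± 0.28, adjusted p = 0.0397) and the eIF3 subunit Eif3e (1.24 ± 0.36, adjusted p = 0.0447). Their share of 13.8% stands beside 2.44% of all genes, and depended on the fit. After GC correction none of the 4 was called, with adjusted p of 0.0989 to 0.391. Eif1ax was also not called with the replicate block (adjusted p = 0.0582) or without TMM factors (adjusted p = 0.0503). Eif2s3x was not called with the replicate block (adjusted p = 0.0609), while Eif4a2 and Eif3e kept their calls in both of these fits. Of the 12 fits without 1 library, Eif1ax was called in 6, with adjusted p of up to 0.0664. Eif2s3x was called in 4 such fits and Eif4a2 in 3, while Eif3e was called only in that without IHC replicate 2. Eif2s3x had every OHC library (77.2 to 113 CPM) above every IHC library (42.6 to 76.2 CPM), the only 1 of the 29 arranged so. Another 1 of the 29 had every IHC library above every OHC library. Across all tested genes, 2.22% and 2.37% were arranged in these 2 ways.

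Across all genes tested, 2.44% were called OHC-enriched and 3.81% IHC-enriched, to be set beside the share in each list below. Of 14 tested elongation factors and genes with related 5′ ends, 1 was called (7.14%). Naca, which binds nascent chains at the ribosome, was at 1092 to 2189 CPM in IHCs and 614 to 1041 CPM in OHCs, without overlap, and its log2 fold change was −1.12 ± 0.21 (edgeR quasi-likelihood test, adjusted p = 0.00224). It thus lay opposite in sign to the 4 called members. Of 46 ribosome assembly factors, 1 was called in each direction (2.17%) by the edgeR quasi-likelihood test. Nmd3, the export adaptor of the large subunit, was higher in OHCs (1.65 ± 0.37, adjusted p = 0.0109). Gar1, a core protein of H/ACA snoRNPs, was higher in IHCs (−1.97 ± 0.46, adjusted p = 0.0132). Both were called in all 12 fits without 1 library, though Nmd3 was not called after GC correction (adjusted p = 0.0537) or Gar1 without TMM factors (adjusted p = 0.0541). None of 15 genes of RNA polymerase I transcription was called in either direction by that test, with 0 also at an unadjusted p under 0.05, while DESeq2 called 1, Taf1b. Of 25 regulators linked to mTORC1, LARP1 and MYC, 1 was called (4%). This was Sesn3, an inhibitor of mTORC1, which was higher in IHCs (−0.96 ± 0.26, edgeR quasi-likelihood test, adjusted p = 0.034). Sesn3 was called in 6 of the 12 fits without 1 library, and not without TMM factors (adjusted p = 0.194). Of 11 genes of ribosome rescue, 1 was called (9.09%), Gtpbp1, which was higher in IHCs (−0.77 ± 0.21, edgeR quasi-likelihood test, adjusted p = 0.0333). It was called in 6 of the 12 fits without 1 library, and not after GC correction (adjusted p = 0.183), with the replicate block or without TMM factors.

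Markers of some other cell types differed between the pools. Those of supporting cells overlapped, with the 10 listed summing to 335 to 742 CPM in IHCs and 328 to 531 CPM in OHCs. Of these 10, 1 was called OHC-enriched and 2 IHC-enriched by the edgeR quasi-likelihood test. The summed level of 6 endothelial markers was 0.196 to 4.96 CPM in IHCs and 10.9 to 172 CPM in OHCs, with 4 of 5 tested called OHC-enriched and Cldn5 at 0 counts in every IHC library. The summed level of 8 mesenchymal markers was 42.5 to 59.5 CPM in IHCs and 6.96 to 27.5 CPM in OHCs, with 0 of 6 tested called by the edgeR quasi-likelihood test. The 7 genes listed as spiral ganglion markers summed to 1384 to 2293 CPM in IHCs and 435 to 673 CPM in OHCs, 4 of 4 tested being IHC-enriched. Prph, Nrn1 and Tubb3 were at no more than 0.554 CPM, so the sum rested on Nefl, Nefm, Gata3 and Snap25. Which cells these transcripts came from was not tested. The endothelial, mesenchymal and spiral ganglion sums differ in the same libraries as the 4 called members. Their part in those calls was not tested.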

How the data were processed

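Bulk RNA-seq of 12 pools (6 IHC, 6 OHC) was analysed. The deposited values are unnormalized read counts for each gene, which the authors made with STAR in a 2-pass alignment to GRCm39 and HTSeq in intersection-nonempty mode on GENCODE vM27. Tool versions and the strand setting are not given in the sources used here. RNA was depleted of rRNA, primed with random hexamers and amplified, and reads carry no molecular identifiers, so precision is read from the spread between libraries. The labels do not tie replicates to animals, and p-values measure only that spread. The 5 summary lines of HTSeq stayed out of library sizes, and reads with no feature were 9.32% to 33.3% of all lines.

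Groups and replicate numbers came from the sample labels. The fits used edgeR 4.0.16 under R 4.3.3 (filterByExpr with minimum count 10 and minimum total 15, TMM, glmQLFit and glmQLFTest), Benjamini-Hochberg adjustment over 13269 genes and a threshold of 0.05, with limma 3.58.1 and DESeq2 1.42.0 as alternatives, and the other steps ran under Python 3.11.15 (scipy 1.17.1, numpy 2.4.6, pandas 2.3.3). Names, coordinates, biotypes and lengths are those of GENCODE vM39, which matched 98.8% of gene identifiers. Start windows are RefSeq sequences on GRCm38.p6. Paralogue ratios used counts plus 0.5 and exact permutation of the 12 libraries, with a smallest possible p of 0.00216. On simulated counts of all 13269 genes, the fit recovered 88 of 200 genes changed 4-fold with 2 false calls. In a separate run where only 20 members were changed, by 2-fold, it recovered 1.

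The members and the gene lists were chosen with earlier results of these data known. Members named in the text are those past the threshold, those with the largest fold changes up to 20 genes, the paralogue pairs, the 5 highest and 5 lowest per length in each cell type, and those not tested, with up to 5 called genes per list. Rpl11, named for another feature, was chosen after its values were seen. Some genes were analysed but are not reported here. The main fits did not pair the samples by replicate number, since same-numbered IHC and OHC libraries had correlations of their deviations between −0.03 and 0.02. These correlations cannot show whether same-numbered pools came from the same animals.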

Additional observations from a re-analysis of the deposited data

Results flagged for a closer look

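In 18 of the 94 groups of 6 libraries checked, over the named members, their summed shares and the paralogue ratios, 1 library stood further from the others than Dixon's critical value of 0.625 for the gap over the range. Chance alone flags about 1 in 20 groups when values are normally distributed. Member levels were checked as untransformed CPM, for which that rate is not known, and the values of one library are not independent of each other. In 9 of the 18 the library was IHC replicate 1 and in 8 it was OHC replicate 5, in each case as the highest.

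In IHC replicate 1, Rpl18 was at 538 CPM, Rpl23a at 131, Rpl35 at 168, Rpl36 at 740, Rpl37 at 246, Rpl4 at 1243, Rps26 at 395, Rps29 at 589 and Rps4l at 124 CPM. The next IHC library was at 223 CPM for Rpl18, 20.7 for Rpl23a, 162 for Rpl36, 507 for Rpl4 and 23.1 CPM for Rps4l. In OHC replicate 5, Rpl10a was at 366 CPM, Rpl23a at 36.7, Rpl27 at 127, Rpl30 at 317, Rps15a at 256.4, Rps26 at 174, Rps27l at 26.9 and Rps29 at 290.0 CPM. Rpl7l1 stood apart in IHC replicate 5, at 40.2 CPM beside at most 11.2 CPM in the other IHC libraries. None of the 4 members called OHC-enriched was among these, though IHC replicate 1 was also the highest IHC library for Rps3 and Rps9.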

How the results depend on the processing

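Of the 4 called members, Rps4x was called in 24 of 25 alternatives, Rps6 in 13, Rps3 in 12 and Rps9 in 9. The number of members called OHC-enriched, 4 as reported, was 2 with RLE size factors, 7 without TMM factors, 1 (Rps3) when libraries were scaled to the members' summed counts, 2 after GC correction, and 1 to 7 when 1 library was left out, with 7 without IHC replicate 1 and 2 (Rps3, Rps4x) without IHC replicate 5. Rps4x was the only OHC-enriched call without any one of IHC replicates 3, 4 and 6 or any OHC library, and the 4 calls without IHC replicate 2 were Rps4x, Rps6, Rpl5 and Rpl30. The number called IHC-enriched was 0 in every alternative except that without OHC replicate 5, where it was 1 (Rps26), so that it ran from 0 to 1 over the fits with 1 library left out. The cause was not tested. The median log2 fold change of the members stayed between −0.33 and −0.05, except for 0.06 without IHC replicate 1 and 0.13 without TMM factors.

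The log2 difference in the small over large subunit ratio, 0.26 as reported, was −0.0067 without the called members, 0.15 per canonical length and 0.10 as a difference of mean log2 levels, with ranges that overlapped. It was 0.30 per kilobase of coding sequence, 0.25 with pseudogene counts added and 0.20 without the member with most counts in each subunit, without overlap. These settings were chosen after seeing the data, as were the GC and length corrections. With 1 library left out, the log2 ratio of Rps27l to Rps27 differed by −1.02 to −0.59 and that of Rps4l to Rps4x by −2.45 to −1.22. Among the called genes of the initiation, mTORC1 and rescue lists, the fits without 1 library ended the call of Eif1ax without IHC replicates 5 or 6 or OHC replicates 1, 2, 5 or 6, of Eif2s3x without IHC replicates 4 to 6 or any OHC library but replicate 4, and of Eif4a2 without any library but IHC replicates 2 and 4 and OHC replicate 3. They ended that of Gtpbp1 without IHC replicates 3 or 5 or OHC replicates 3 to 6, and of Sesn3 without IHC replicates 3, 5 or 6 or OHC replicates 1, 2 or 5.

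The replicate block, tried though same-numbered libraries showed no shared deviation, called 4 members OHC-enriched (Rps3, Rps4x and Rps9 among them) with a median of −0.13, and no paralogue ratio. In the simulation a 2-fold change was recovered for 1 of 20 members, where these 20 were the only genes changed. The adjustment of p depends on how many genes change, so this share does not carry over to the 12 libraries. A member without a call may still differ by that size.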

Other observations

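Rps4x and the initiation factors Eif1ax and Eif2s3x, all higher in OHCs, lie on the X chromosome, a feature looked at after their values were seen. Of 433 X-linked genes tested, 11 were called OHC-enriched (2.54%) and 7 IHC-enriched (1.62%), with a median log2 fold change of 0.05. The other X-linked members had log2 fold changes of −0.14 ± 0.29 (SE) for Rpl10, 0.12 ± 0.38 for Rpl36a and −0.28 ± 0.43 for Rpl39. Both Xist, which coats the inactive X chromosome in female cells, and the Y-linked genes were detected in every library. Xist was at 40.5 to 183 CPM in IHCs and 53.6 to 565 CPM in OHCs (0.94 ± 0.48, edgeR quasi-likelihood test, adjusted p = 0.261), and Kdm5d at 4.51 to 29.7 CPM and 2.12 to 58.7 CPM.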
